A study of Mus musculus with 9 samples.

Results

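T helper 2 (Th2) cells from the lungs of mice with chronic allergic airway inflammation were compared with those from mice with acute inflammation, over 19937 genes. The comparison uses 6 of the 9 arrays of the study, the 3 titled chronic and the 3 titled acute, and the other 3 hold naive cells. The series asks what keeps chronic allergic inflammation going. Mice were sensitised to ovalbumin (OVA) by 3 intraperitoneal injections of 10 µg with 1.5 mg aluminium hydroxide on days 1, 14 and 21. The acute group then breathed 1% OVA aerosol on 3 days in a row, and its cells were taken at day 29. The chronic group breathed it for 12 weeks, with 2 challenges a week, and its cells were taken at day 104. Lungs of both groups were perfused, digested for 30 min at 37 °C, and sorted for CD4 cells that carry CD69 and a further surface marker given in the labels. After the sort all cells were stimulated with antibodies to CD3 and CD28 for 8 h, by the labels. Naive CD4 cells were sorted at day 29 from spleens after sham treatment and had the same stimulation by the labels. The sources used here do not give strain, sex or age. Day, length of exposure and age at harvest change together between both Th2 groups and cannot be told apart.

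Th2 cells are CD4 T cells that follow the transcription factor Gata3 and secrete Il4, Il5 and Il13, the cytokines behind IgE, eosinophils and mucus in allergic airways. After the first wave of inflammation some of them stay in lung tissue, marked by CD69, and answer quickly when the allergen returns. Effector T cells divide rapidly after they first meet antigen, and the resting memory cells that remain divide little until they are stimulated again.

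All values are log2 intensities as the authors deposited them, and each gene is given by its brightest probe set that names it alone. A difference is chronic minus acute on the log2 scale. A gene passed the test at an adjusted p under 0.05 (limma on all 9 arrays with 1 shared spread, two-sided, Benjamini-Hochberg over all genes). The labels call the replicates biological without saying whether each came from its own animals, so that p-values measure the spread between these arrays. The median absolute difference over all genes was 0.156, and the median SD was 0.114 among acute arrays and 0.133 among chronic arrays. A difference is between group means and an SD is the spread of single arrays, so that these sizes cannot be compared directly.

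Of the 19937 genes, 6 passed, which is 0.0301%, with 3 higher (0.015%) and 3 lower (0.015%) in chronic cells. Foxb1, Arnt2 and Shtn1 rose, and Hdc, Grp and Med27 fell. Without an adjustment, 2005 genes (10.1%) were higher and 957 (4.8%) lower at p under 0.05. The arrays of both groups did not overlap for 4516 genes (22.7%), with the chronic arrays above for 2354 (11.8%) and the acute arrays above for 2162 (10.8%). A difference of 1 or more was measured for 47 genes, 13 higher and 34 lower, and for 28 of these the arrays did not overlap.

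Hdc, the enzyme that makes histamine from histidine, had the largest fall of the 6. Its levels were 9.66, 9.15 and 9.19 on the acute arrays and 7.46, 7.35 and 7.80 on the chronic arrays. Every chronic array lay below every acute array, and above the naive mean of 6.58. The difference was -1.80 (SE 0.17, adjusted p = 0.0235), a 3.47-fold fall in intensity. Grp, which encodes the neuropeptide gastrin-releasing peptide, had levels of 8.86, 8.74 and 8.82 on the acute and 7.35, 7.48 and 6.93 on the chronic arrays. Again the groups did not overlap, with chronic replicate 3 the lowest, and Grp fell by 1.55 (SE 0.16, adjusted p = 0.0235). Med27, a subunit of the Mediator complex that links transcription factors to RNA polymerase, fell from 9.16, 9.23 and 9.29 to 8.45, 8.38 and 8.56. Its difference was -0.77 (SE 0.08, adjusted p = 0.0314), and the chronic levels lay under the naive mean of 8.78 as well.

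Foxb1, a forkhead transcription factor known from the developing brain, had the largest rise among the genes that passed. It had levels of 6.75, 6.70 and 6.81 in acute cells and 7.87, 8.14 and 8.24 in chronic cells, against a naive mean of 6.20. The difference was 1.33 (SE 0.12, adjusted p = 0.0235), a 2.52-fold rise, with every chronic array above every acute one. Arnt2, a basic helix-loop-helix partner of PAS domain transcription factors, rose from 8.09, 8.08 and 8.12 to 9.06, 9.30 and 9.14. Shtn1, which encodes shootin-1, a protein that couples actin to adhesion in growing axons, rose from 9.01, 9.0 and 9.18 to 9.86, 10.13 and 10.13. The differences were 1.07 (SE 0.11) for Arnt2 and 0.98 (SE 0.10) for Shtn1, each with an adjusted p of 0.0235. Both genes were low in naive cells, with means of 6.47 and 5.76, and highest in chronic cells on every array.

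**Figure D1:**
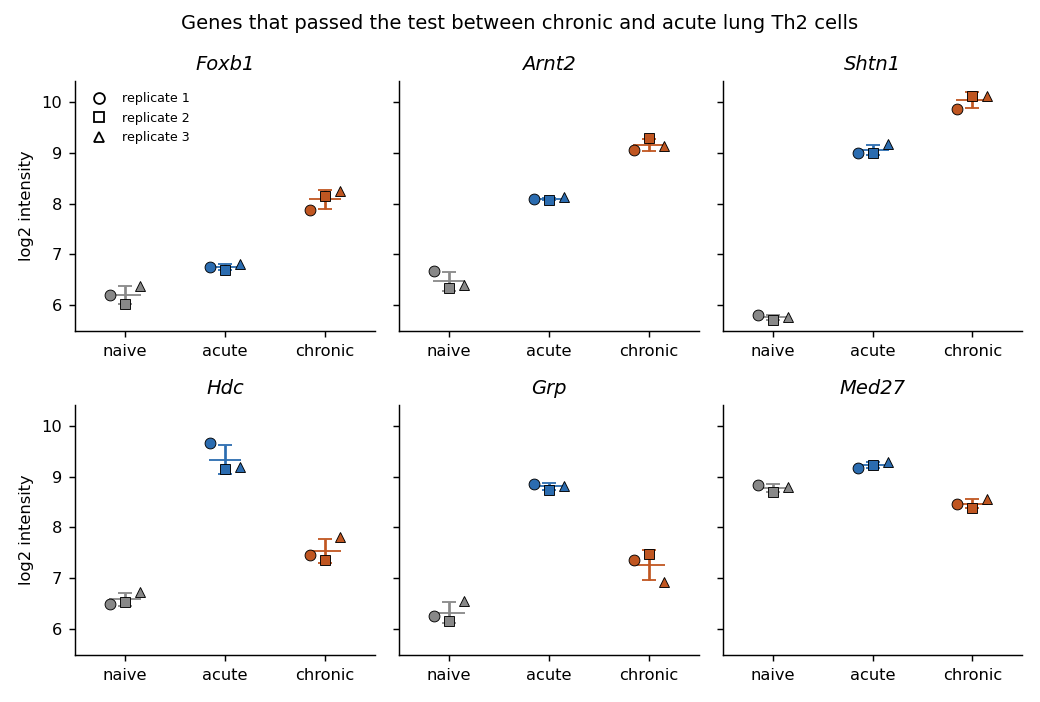
Log2 intensity (y axis) of the 6 genes that passed, on each array (points, shape by replicate) of naive, acute and chronic cells (x axis), with the group mean and SD as bars. Foxb1, Arnt2 and Shtn1 step up from acute to chronic cells, while Hdc, Grp and Med27 step down, and no chronic array overlaps an acute one.

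The direction of these 6 differences could not turn when 1 array was left out, since their groups did not overlap. Their calls did change. Foxb1 had differences from 1.26 to 1.44 in the 9 fits that each leave out 1 array and passed in 4 of them, without naive 1, naive 2, chronic 1 or chronic 3. Grp passed in 3 and Hdc in 3 of the 9, while Arnt2, Shtn1 and Med27 each passed in 2. No gene passed without naive 3, acute 1, acute 2, acute 3 or chronic 2, 12 passed without naive 1, 11 without chronic 3, 4 without naive 2 and 2 without chronic 1. The fit on the 6 Th2 arrays alone called 2 genes, Foxb1 and Arnt2.

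The difference between both groups depended on how bright a gene was. When genes were put into 5 equal groups by their mean level over the 6 arrays, the share that was higher in chronic cells was 88.0%, 81.9%, 68.3%, 32.0% and 17.8% from the dimmest to the brightest group. The median difference ran from 0.15 in the dimmest group through 0.12, 0.08 and -0.10 to -0.18 in the brightest. The 1015 olfactory receptor genes, whose products sense odours in the nose and which stand here for a dim background, had a median difference of 0.33. Their median level was 5.21, 4.98 and 5.0 on the acute arrays and 5.67, 5.51 and 5.15 on the chronic arrays. Chronic 1 and chronic 2 were thus the highest and chronic 3 lay under acute 1, so that the groups overlapped.

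To take this shift into account, each array was also centred along the level of its genes (a loess curve of its deviation from the mean of all arrays), and these level-centred values were fitted in the same way. The 5 groups then had medians from -0.02 to 0.01, and the olfactory receptor genes kept 0.20. On that scale 8 genes passed (0.0401%), 5 higher and 3 lower, among them Foxb1 (1.34), Shtn1 (1.15), Arnt2 (1.22), Hdc (-1.66) and Grp (-1.46). Med27 no longer passed, with a level-centred difference of -0.59 (adjusted p = 0.223). Itgb8, an integrin chain that releases active TGF-beta, passed with 0.80 (adjusted p = 0.0329), and Dlgap5, a spindle protein, with -0.66 (adjusted p = 0.0329). The other one was Paxbp1 (0.78), which binds the paired-box factors of muscle precursor cells, named after its value was seen. Quantile normalization gave 4 higher and 1 lower, and removal of each array's median 1 higher and 4 lower. Of the 6 called genes, only Foxb1, Arnt2 and Shtn1 passed with quantile normalization. With medians removed, Foxb1, Hdc, Grp and Med27 passed, and Arnt2 and Shtn1 did not. A gene is called above background below when its group mean exceeded the 95th percentile of the olfactory receptor genes, 6.45 in acute and 6.83 in chronic cells. By this measure 8307 genes were above background in both groups, all 6 called genes among them. Of the 8307, 354 (4.26%) were higher and 740 (8.91%) lower at an unadjusted p under 0.05, and with level-centred values 510 (6.14%) were higher and 298 (3.59%) lower. The direction of a small difference in a bright gene therefore depended on this choice.

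**Figure D2:**
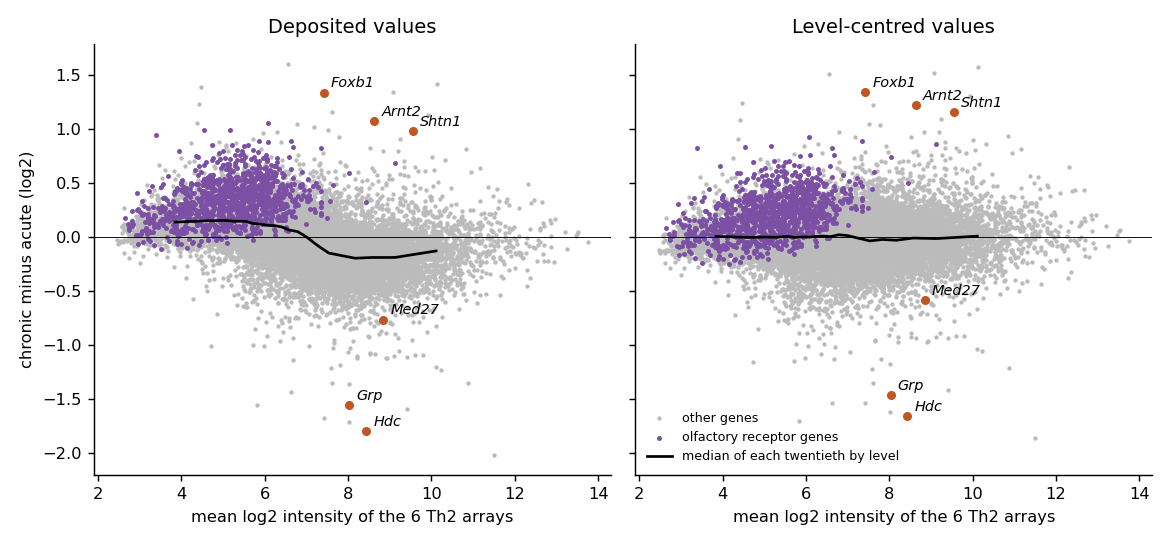
Chronic minus acute difference (y axis, log2) of every gene against its mean log2 intensity on the 6 Th2 arrays (x axis), for deposited values (left) and level-centred values (right); purple points are olfactory receptor genes and the black line is the median of each twentieth of genes by level. On the left the line lies above 0 for dim genes and below 0 for bright ones, on the right it lies near 0, and the labelled genes, those that passed with the deposited values, stand far from it in both.

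Both groups also held arrays of a different kind. Of the 11799 probe sets that are not listed with a gene, 6 were at least 1 log2 unit higher on naive 1, acute 1, chronic 1 and chronic 2 than on every one of the other 5 arrays, with array medians of 8.69 to 9.76 against 6.73 to 6.92. The labels do not mention such a division, which was found in the data, and it puts 1 of 3 acute arrays but 2 of 3 chronic arrays on 1 side. Il2, the growth factor that T cells make on stimulation, had levels of 10.94, 12.01 and 11.69 on the acute and 9.95, 8.95 and 11.70 on the chronic arrays. Among the Th2 arrays chronic 1 and chronic 2 were lowest, followed by acute 1, and chronic 3 was as high as acute 3. On the naive arrays, which share in the spread of every test, Il2 was 5.07, 11.33 and 11.27, so that naive 1 lacked the high level of the other stimulated arrays. Without naive 1, 12 genes passed, as given above. The heat shock and dissociation stress genes had list medians of 8.95, 9.52 and 9.52 in acute and 8.43, 8.34 and 9.58 in chronic cells, with the same 3 arrays lowest. Chronic 3 correlated with acute 3 at 0.991 across genes, and with chronic 1 and chronic 2 at 0.981 and 0.985. Values are therefore also given with the array set as a term in the fit and within each set, that is chronic 1 and 2 minus acute 1 in the first set, and chronic 3 minus acute 2 and 3 in the second. Of all genes, 66.5% had the same sign in both sets. Where the groups do not overlap, as for the 6 genes that passed, both signs must be the same. For these genes only the sizes are informative. Hdc had differences of -2.26 and -1.37 in the first and second set and Grp had -1.45 and -1.85. For Foxb1 they were 1.26 and 1.49, for Arnt2 1.09 and 1.04, for Shtn1 0.99 and 1.03, and for Med27 -0.74 and -0.71. With the array set as a term 7 genes passed (0.0351%), the same 5 of the 6 without Med27 (adjusted p = 0.0639), and in addition Plk1 and H2bc3.

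**Figure D3:**
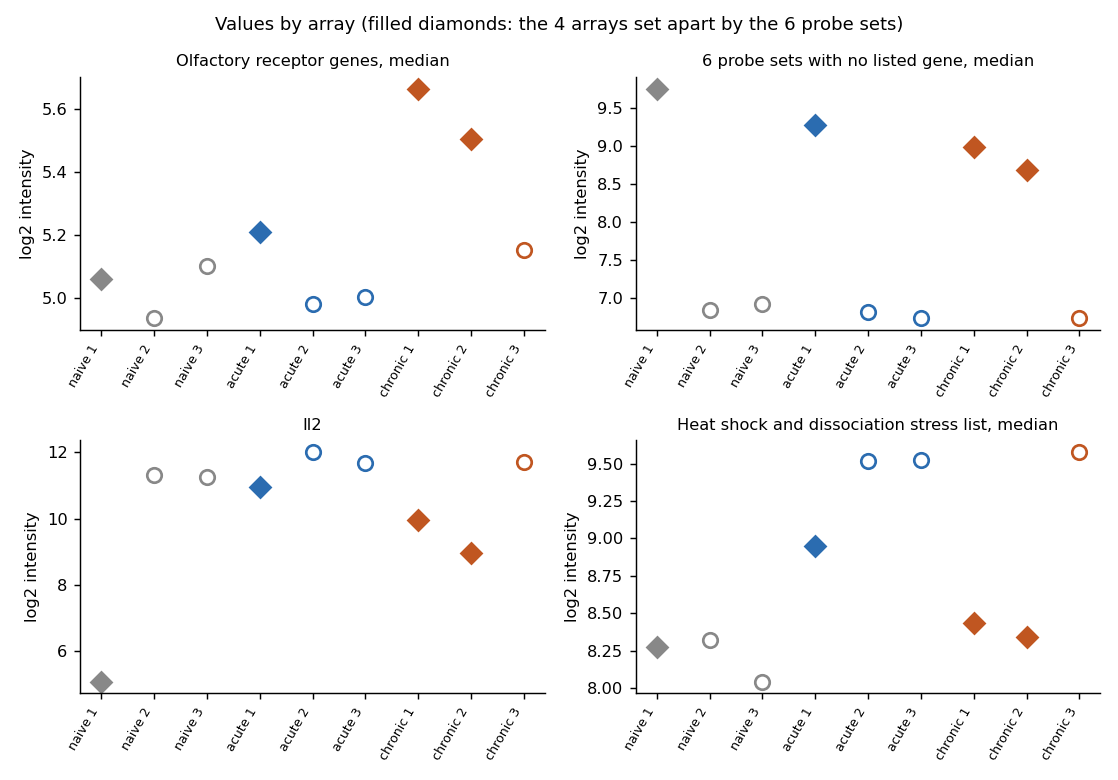
Log2 intensity (y axes) on each of the 9 arrays (x axes) of the olfactory receptor genes' median, the median of the 6 probe sets that name no gene, Il2, and the median of the heat shock and dissociation stress list; filled diamonds mark the 4 arrays set apart by the 6 probe sets. Among the lung arrays, acute 1, chronic 1 and chronic 2 have the lowest Il2 and stress medians, and chronic 3 lies with acute 2 and acute 3.

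Cell cycle genes were lower in chronic cells as a group, although none passed over all genes. Of 45 measured members, 26 were lower and 0 higher at an unadjusted p under 0.05. By the same measure 4.8% of all genes were lower, and 8.91% of those above background in both groups. The list was chosen with earlier results of these data known. For 28 members all acute arrays lay above all chronic arrays (10.8% of all genes), and for 1, Ccnd2, the chronic arrays lay above (11.8% of all genes). The median difference of the list was -0.41, beside 0.04 over all genes, and it was -0.42 with level-centred values. Within the first and second array set it was -0.53 and -0.47. The median level of the list was 7.50, 7.30 and 7.09 on the acute arrays and 7.04, 6.91 and 6.63 on the chronic arrays, against 6.38 to 6.50 on the naive arrays. Every chronic array thus lay under every acute array, with chronic 3 the lowest. Of the 45 members, 24 were above background in both groups and 9 in neither.

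The promoters of the 5 cell cycle genes with the smallest p, among those above background in at least 1 group and with 1 listed start, are shown because genes of mitosis are known to share short elements close to their start. Each line gives the 150 bases before the transcription start, from RefSeq on GRCm38.p6, 5′ to 3′ on the strand of the gene. Capitals mark CCAAT and the cell cycle homology elements TTTGAA and TTCGAA, searched on both strands.
Kif11, chr19:37376232-37376381, plus strand: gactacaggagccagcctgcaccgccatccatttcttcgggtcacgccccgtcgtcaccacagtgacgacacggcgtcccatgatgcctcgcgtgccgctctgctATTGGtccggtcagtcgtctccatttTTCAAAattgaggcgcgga
Mki67, chr7:135716380-135716529, minus strand: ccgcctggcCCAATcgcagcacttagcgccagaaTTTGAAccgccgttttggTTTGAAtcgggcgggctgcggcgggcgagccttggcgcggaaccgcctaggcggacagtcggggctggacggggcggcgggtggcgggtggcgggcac
Cdk1, chr10:69352913-69353062, minus strand: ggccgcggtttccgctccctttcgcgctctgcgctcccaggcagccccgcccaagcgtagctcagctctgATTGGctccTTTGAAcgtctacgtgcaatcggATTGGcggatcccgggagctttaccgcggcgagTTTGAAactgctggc
Plk1, chr7:122159285-122159434, plus strand: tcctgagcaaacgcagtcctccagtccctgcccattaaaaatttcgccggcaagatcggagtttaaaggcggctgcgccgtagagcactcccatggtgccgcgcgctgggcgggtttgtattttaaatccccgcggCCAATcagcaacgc
Top2a, chr11:99024190-99024339, minus strand: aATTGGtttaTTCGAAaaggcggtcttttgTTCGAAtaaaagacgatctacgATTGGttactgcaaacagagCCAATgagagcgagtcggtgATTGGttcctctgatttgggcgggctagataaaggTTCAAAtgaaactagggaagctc
CCAAT was found in all 5, and a homology element in 4, Plk1 being the exception. Of all 32851 promoter windows of this length, 24.5% held CCAAT and 9.7% a homology element. For the cell cycle list, 38 genes had 41 windows, of which 30 (73.2%) held CCAAT and 8 (19.5%) a homology element. These are matches of letters, and binding was not measured.

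Among the mitosis genes, Kif11, the kinesin that pushes spindle poles apart, had levels of 7.63, 7.31 and 7.09 in acute and 6.30, 5.94 and 5.49 in chronic cells. All chronic arrays lay under the acute ones and also under the background limit, and the difference was -1.43 (SE 0.23, adjusted p = 0.226). Mki67, the classical marker of proliferating cells, had levels of 8.72, 8.28 and 8.16 against 7.69, 7.15 and 6.77. Its difference was -1.18 (SE 0.23, adjusted p = 0.301), and the chronic arrays stayed above the naive mean of 6.23. Ccna2, the cyclin of S phase and mitotic entry, went from 8.90, 8.13 and 7.82 to 7.45, 7.20 and 6.15, a difference of -1.35 (adjusted p = 0.322). Top2a, which untangles sister chromosomes, went from 8.42, 8.30 and 7.85 to 7.47, 7.18 and 6.30 (-1.21, adjusted p = 0.322). Neither pair of groups overlapped, acute 1 was the highest and chronic 3 the lowest array for both, and none of these 4 genes passed. Cdk1, the kinase that starts mitosis, had a difference of -0.74 and Plk1, a kinase of spindle assembly, one of -0.74, with adjusted p of 0.301 and 0.322. With the array set as a term, Plk1 was the list's member that passed (-0.87, adjusted p = 0.0368), and 31 members were lower and 0 higher before adjustment. Of all genes, 5.21% were lower before adjustment in that fit. Nusap1 (-0.96), Tpx2 (-0.83), Bub1 (-0.68) and Aurkb (-0.65), all parts of the spindle or its checkpoint, had non-overlapping arrays too. Of these, Bub1 was above background in neither group, and Nusap1 and Tpx2 only in acute cells.

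Other mitosis members had smaller differences, among them Kif20a (-0.30), Kif23 (-0.27), Birc5 (-0.09) and Cenpf (0.02). Kif20a, Birc5 and Cenpf were above background in neither group, so that the size of their differences is uncertain. Of DNA replication genes none passed. The helicase subunits Mcm2 to Mcm7 had differences from -0.47 (Mcm3) to -0.29 (Mcm7), and the nucleotide-synthesis genes Rrm1, Rrm2 and Tyms had -0.47, -0.61 and -0.44. With level-centred values the helicase subunits had smaller differences, from -0.42 (Mcm3) to -0.16 (Mcm7). Rrm1, Rrm2 and Tyms then had -0.31, -0.63 and -0.45. Pcna, the sliding clamp, had levels of 11.04, 10.74 and 10.56 against 10.62, 10.79 and 10.47, which overlap (-0.16, adjusted p = 0.653). Among members of G1 and the entry into S phase, Ccne2, a cyclin E, had -0.56, Cdc25a -0.41 and Cdk2 -0.27, all without overlap. With level-centred values these 3 genes had -0.71, -0.25 and -0.17. Ccne2 was above background in neither group. Cdk4 (-0.12), Ccnd3 (-0.06) and Cdk6 (-0.03) had overlapping arrays. Ccnd2, the D cyclin that T cells express on stimulation, was 11.28, 11.61 and 11.54 in acute and 11.63, 11.83 and 11.76 in chronic cells, 0.26 higher without passing (adjusted p = 0.581).

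**Figure D4:**
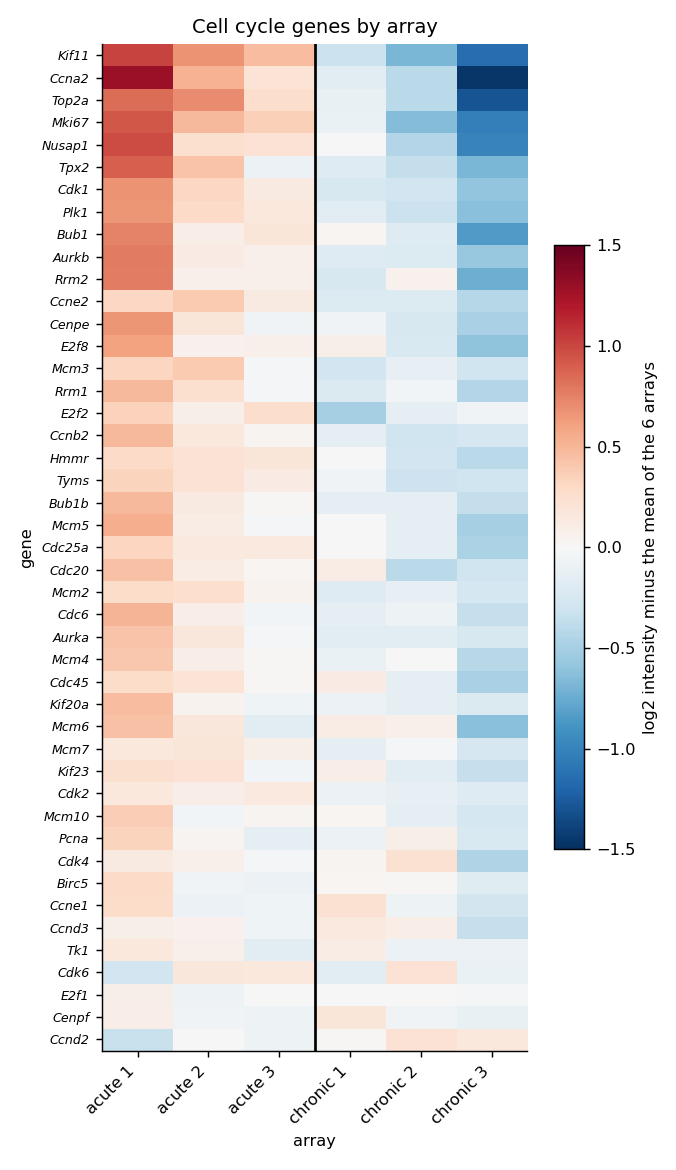
Log2 intensity of the 45 cell cycle genes (rows) on each Th2 array (columns), as the difference from the gene's mean over the 6 arrays (red above, blue below); rows are ordered by the chronic minus acute difference, from Kif11 to Ccnd2. Acute 1 is the highest and chronic 3 the lowest array for most genes in the upper part, and the lower rows, among them Pcna, Cdk4 and Cdk6, show little difference between the groups.

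Histone genes, looked at after their values were seen, had the same direction. Of 30 genes, 15 were lower and 0 higher at an unadjusted p under 0.05 (4.8% and 10.1% of all genes), which is no support since they were chosen by their values. Of the 30, 11 were above background in neither group, and the median difference was -0.44 (-0.41 with level-centred values). H1f5, a linker histone, had levels of 9.21, 8.72 and 8.39 in acute and 7.77, 7.77 and 7.43 in chronic cells (-1.12, adjusted p = 0.291). The groups did not overlap. H2bc3 had the largest difference (-1.71), and passed with the array set as a term. Core histone genes are near-identical in sequence, and probe sets may read more than 1 of them, so that single members are uncertain.

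The size of the cell cycle difference depended on the arrays. Over the fits that each leave out 1 array, between 17 and 30 of the 45 members were lower before adjustment and 0 higher, with the smallest count without chronic 3 and 18 without acute 1. The median was -0.33 and -0.29 in these 2 fits. Over all 19937 genes, the lower count in the fits that leave out 1 array ran from 472 (without acute 2) to 2068 (without naive 1). On the 6 Th2 arrays with the array set as a term, chosen after seeing the data, 37 members were lower and 1 higher. Of the lower ones, 20 passed. Of all 19937 genes, 2326 were lower before adjustment in that fit, and 287 passed, 235 of them lower. With array weights the list median was -0.23, and 20 members were lower and 0 higher before adjustment. Of all 19937 genes, 3808 were lower before adjustment in the fit with array weights. In bulk RNA, fewer dividing cells and less of each transcript per cell cannot be told apart.

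The signature cytokines of type 2 immunity had small differences between chronic and acute cells, and none of them passed. Il5, which drives eosinophils, had levels of 12.72, 12.59 and 12.64 in acute and 12.43, 12.31 and 12.54 in chronic cells (-0.22, SE 0.10, adjusted p = 0.343). Il13, a driver of mucus and airway muscle contraction, had 13.06, 13.02 and 13.09 against 12.78, 12.73 and 12.98 (-0.23, SE 0.13, adjusted p = 0.415). The chronic arrays lay just under the acute ones for both genes. Il4, the IgE switch factor, had 12.16, 11.30 and 11.43 against 11.97, 11.93 and 11.96, and overlapped (0.32, adjusted p = 0.437). With level-centred values the differences were -0.08 for Il5, -0.11 for Il13 and 0.48 for Il4. Gata3 had levels of 11.69, 11.83 and 12.02 against 11.69, 11.69 and 11.90 (-0.09, SE 0.31, adjusted p = 0.890), and its sign turned with level-centred values (0.03). A p that misses the threshold does not show equal levels.

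Of the 13 measured Th2 cytokine genes, 3 were lower and 0 higher before adjustment (4.8% and 10.1% of all genes) and none passed, with a median of -0.25 (-0.17 level-centred). The 3 were Il24, Il6 and Il21. Il24, a cytokine of the Il10 family, had levels of 9.02, 8.76 and 8.26 in acute cells and 7.94, 7.98 and 7.94 in chronic cells, without overlap (-0.72, adjusted p = 0.322). Il6 was above background in neither group. Il3, which supports mast cells and basophils, had levels of 12.13, 12.86 and 12.56 in acute and 10.11, 8.91 and 12.47 in chronic cells. That is the largest difference of all genes (-2.02, adjusted p = 0.357), but the groups overlapped, and the low arrays were chronic 1 and 2, as for Il2. With the array set as a term the difference was -1.31 (adjusted p = 0.387). Il10, the suppressive cytokine that Th2 cells also make, had levels of 12.47, 11.75 and 12.01 against 12.64, 12.62 and 12.43, 0.49 higher and overlapping (adjusted p = 0.346). Il17f, the Th17 cytokine, had 10.98, 11.06 and 10.47 against 9.56, 8.70 and 10.54 (-1.23, adjusted p = 0.322), and was -1.85 in the first and -0.22 in the second array set.

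Among the 23 Th2 transcription factor genes, 4 were higher and 0 lower before adjustment (10.1% of all genes were higher), and none passed. Prdm1, which encodes the effector factor Blimp-1, had levels of 9.80, 9.82 and 9.80 in acute and 10.22, 10.32 and 10.01 in chronic cells (0.37, SE 0.09, adjusted p = 0.322). Maf, an activator of Il4 and Il10, had 10.85, 10.48 and 10.61 against 11.34, 11.48 and 10.94 (0.60, adjusted p = 0.322). Neither gene overlapped between groups, and chronic 3 was the lowest chronic array for both. Ahr, a ligand-activated PAS factor that senses aromatic compounds, belongs to the Th17 and tissue residency lists and not to this one. Its levels were 8.95, 9.0 and 9.0 against 9.60, 9.98 and 9.48 (0.70, SE 0.12, adjusted p = 0.291). The level-centred difference of Ahr was 0.88 (adjusted p = 0.0937). The regulatory T cell factor Foxp3 overlapped, with 10.10, 10.72 and 10.67 against 10.29, 10.08 and 10.26 (-0.29, adjusted p = 0.414). Tbx21, the Th1 factor, also overlapped, at 8.30, 8.00 and 7.69 against 8.46, 8.57 and 7.85 (0.30, adjusted p = 0.643).

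Receptors differed in both directions and none passed. Il1r2, the decoy receptor that binds Il1 without signalling, had levels of 9.51, 9.38 and 9.20 in acute and 10.59, 10.80 and 10.08 in chronic cells, with no overlap (1.13, SE 0.24, adjusted p = 0.306). Il9r, the receptor for the mast cell and Th2 growth factor Il9, had 8.14, 8.15 and 8.49 against 7.55, 7.62 and 7.68 (-0.64, SE 0.13, adjusted p = 0.301). Of 19 Th2 receptor genes, 3 were higher and 1 lower before adjustment (10.1% and 4.8% of all genes). The chemokine receptor Ccr2, which guides cells to inflamed tissue, had 9.01, 9.05 and 9.13 against 9.59, 9.83 and 9.48 (0.57, adjusted p = 0.301). Ccr1, a receptor for inflammatory CC chemokines, had 6.71, 6.60 and 6.68 against 7.29, 8.20 and 7.55 (1.02, adjusted p = 0.301). Both had all chronic arrays above all acute ones, and of 27 chemokine receptor genes 3 were higher and 0 lower before adjustment, near the 10.1% of all genes for the higher ones. Lag3, an inhibitory receptor that binds MHC class II, had 9.44, 9.25 and 9.42 against 9.98, 10.29 and 9.69 (0.61, adjusted p = 0.322). The list of 22 inhibitory receptor and exhaustion genes had a median of -0.04, with 2 higher and 1 lower, shares near those of all genes (10.1% and 4.8%).

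Of the 35 TGF-beta and BMP genes, 4 were higher and 2 lower before adjustment, shares near the 10.1% and 4.8% of all genes. Itgb8 had levels of 9.55, 9.91 and 9.81 in acute and 10.23, 10.41 and 10.50 in chronic cells (0.62, SE 0.11, adjusted p = 0.301), and as given above passed with level-centred values. It was far above the naive mean of 6.10. Inhba, the activin A subunit, had 8.70, 8.83 and 8.76 against 7.88, 7.76 and 8.37 (-0.76, adjusted p = 0.306). Lrrc32, which holds latent TGF-beta on the surface of regulatory T cells, had 8.18, 8.75 and 8.66 against 7.52, 7.41 and 7.46 (-1.07, adjusted p = 0.322). None of these 3 overlapped between groups.

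In the list of 26 histamine, neuropeptide and eicosanoid genes, 2 were higher and 3 lower before adjustment (10.1% and 4.8% of all genes), and Hdc was the member that passed. Penk, the precursor of enkephalins, had levels of 10.79, 11.02 and 10.71 in acute and 11.43, 11.64 and 11.35 in chronic cells (0.64, SE 0.14, adjusted p = 0.307). It differed in the opposite direction to Grp and did not overlap. Hdc is also a marker of mast cells and basophils, and of the 11 measured genes of that list 9 were above background in neither group. Cpa3, the mast cell protease, had means of 4.30 in acute and 4.57 in chronic cells, both below background, and Ms4a2, the beta chain of the IgE receptor, was below it too. Kit, the stem cell factor receptor, was just above background in acute cells, with a mean of 6.63. The part of mast cells in the fall of Hdc was not tested.

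Of lipid and water transport genes, Aqp9, a channel for water and glycerol, came closest to the threshold. It had levels of 9.22, 9.06 and 9.05 in acute and 8.33, 8.18 and 8.45 in chronic cells (-0.79, SE 0.10, adjusted p = 0.0639). Plin2, which coats lipid droplets, had 9.75, 9.38 and 9.86 against 8.61, 8.82 and 8.76 (-0.93, SE 0.13, adjusted p = 0.124). Cpt1a, which brings fatty acids into mitochondria, had a difference of -0.49 (adjusted p = 0.322). None of these overlapped, and of 33 lipid genes 3 were lower and 1 higher before adjustment, with a median of -0.08. Among all genes above background 8.91% were lower, a share like that of the lipid list. The glycolysis list had a median of -0.25 over 23 genes with 3 lower and 0 higher (4.8% lower among all genes and 8.91% among those above background in both groups), led by Pfkfb3 (-0.43) and Pfkp (-0.57), both of the phosphofructokinase step. Tkt, the transketolase of the pentose phosphate pathway, had a difference of -0.47 (adjusted p = 0.226). The ribosomal protein list (median -0.24) and the oxidative phosphorylation list (-0.19) shrank to -0.12 and -0.05 with level-centred values, and their genes are bright.

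Other genes that came next by p without passing were less familiar in T cells. Tmtc2 (0.69, adjusted p = 0.124) and Camk2n1, an inhibitor of calmodulin kinase II (0.58, adjusted p = 0.155), were higher, and so were Slc24a3, a sodium and calcium exchanger (0.67), and Myo3b (0.71). Atp6v0a1, a subunit of the proton pump of lysosomes, had levels of 7.97, 8.05 and 8.06 against 7.33, 7.32 and 7.34 (-0.70, adjusted p = 0.128). Uchl3, a deubiquitinase, had a difference of -0.79 and Dennd2d one of -0.51, each with an adjusted p of 0.226. The arrays of all these genes did not overlap, a condition of their choice.

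The sort markers and other cell types were set beside these results. Cd4 had levels of 10.35, 10.30 and 10.28 in acute and 9.70, 9.78 and 9.83 in chronic cells (-0.54, adjusted p = 0.392), without overlap. Cd69 had 10.77, 11.34 and 11.23 against 10.24, 10.22 and 11.14 (-0.59, adjusted p = 0.493), lowest on chronic 1 and 2. Of 115 measured marker genes of 13 other cell types, 84 were above background in neither group and 23 in both, and 1 passed, which was Hdc. The 13 list medians ran from -0.19 for innate lymphoid cells to 0.21 for B cells, and from -0.10 to 0.13 with level-centred values. Ighm, the heavy chain of IgM, was the B cell gene with the smallest p, at 7.32, 7.01 and 7.14 against 8.02, 7.64 and 7.41 (0.54, adjusted p = 0.322). For lung epithelium it was Sftpa1 (0.46, level-centred 0.51) and for dendritic cells H2-Eb1 (0.41, level-centred 0.51), each with an adjusted p of 0.322. Both were above background in both groups, without overlap. Of 10 B cell, 13 lung epithelium and 12 dendritic cell genes, 2 each were higher and 0 lower before adjustment (10.1% and 4.8% of all genes). The part of other cells in the results was not tested.

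**Figure D5:**
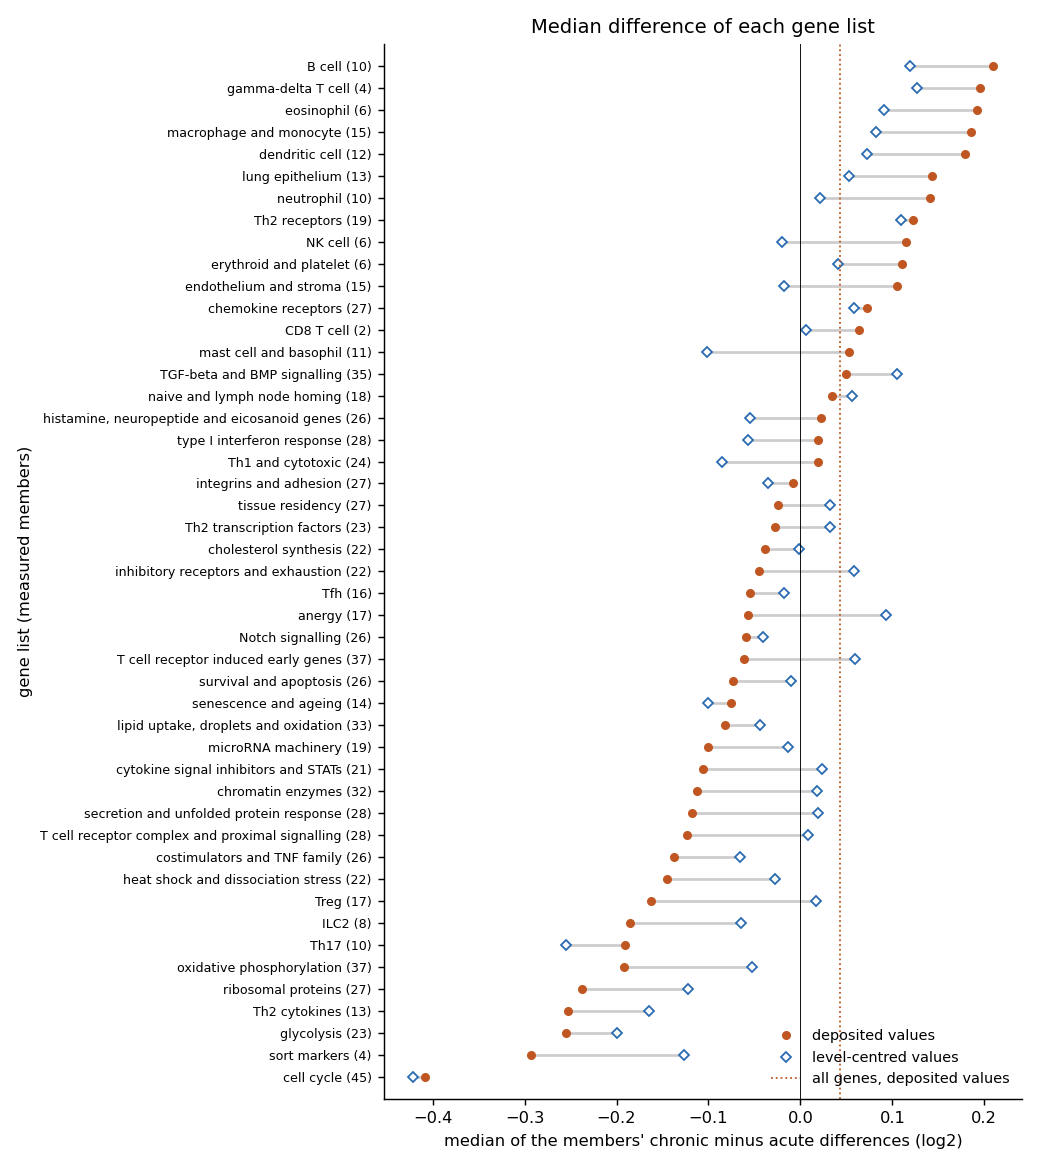
Median chronic minus acute difference (x axis, log2) of each of 47 gene lists (rows, with the number of measured members), for deposited values (filled circles) and level-centred values (open diamonds); the dotted line is the median over all genes with deposited values. The cell cycle list lies lowest at -0.41 and hardly moves when levels are centred, while lists of bright genes such as ribosomal proteins and of dim genes such as B cell markers move towards 0.

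Among 291 microRNA genes on the arrays, which read the transcript of the gene and not the mature microRNA, 0 passed in limma. At an unadjusted p under 0.05, 58 were higher and 1 lower (10.1% and 4.8% of all genes), and with level-centred values 44 and 8, where over all genes these shares were 5.29% and 4.13%. On these arrays 211 of the 291 were above background in neither group. Of the 1015 olfactory receptor genes, which stand for a dim background, 408 were higher and 0 lower, and 230 and 3 with level-centred values. These are larger shares higher than among the microRNA genes, whose level-centred median difference was 0.03. The 5 with the smallest p were Mir7b, Mir7-1, Mir143, Mir680-3 and Mir297b, all higher in chronic cells. A mature microRNA finds its targets mainly through its seed, bases 2 to 8. The mature 5p sequences of the genes Mir7b and Mir7-1 are shown because both genes are among these 5 and share a seed (capitals), with that of Mir680-3 for contrast, from RefSeq on GRCm38.p6; 261 of the 291 genes matched by symbol.
mmu-miR-7b-5p, chr17:56243017-56243040, plus strand: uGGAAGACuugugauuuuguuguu
mmu-miR-7a-5p, chr13:58392841-58392863, minus strand: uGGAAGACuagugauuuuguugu
mmu-miR-680, chr12:35194849-35194869, minus strand: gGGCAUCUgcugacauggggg
The gene Mir7-1 had levels of 8.22, 8.50 and 8.49 in acute and 9.08, 9.11 and 8.75 in chronic cells, without overlap (0.58, SE 0.14, adjusted p = 0.322). Its naive mean was 9.34, above both. Mir7b had 6.37, 6.03 and 6.13 against 6.89, 6.87 and 6.60 (0.61, SE 0.15, adjusted p = 0.322). It was above background in neither group, so that the size of its difference is uncertain. Mir143 had a difference of 0.59, Mir680-3 of 0.53 and Mir297b of 0.99, each with the same adjusted p of 0.322.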

How the data were processed

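The authors deposited 1 log2 intensity per probe set and array, and RMA and limma are named in the submitters' processing notes. The sources used here give no versions, probe annotation or filters. Of 34760 probe sets, 21640 name 1 gene, 1321 name several and 11799 are not listed with one. A gene was represented by its single-gene probe set with the highest mean over the 9 arrays (954 of 19937 genes had more than 1). The model was fitted in R 4.3.3 by lmFit, contrasts.fit and eBayes of limma 3.58.1, with the group as the only term. No permutation p is given, since 3 against 3 arrays allow none below 0.1 (exact, two-sided). Level-centred values subtract from each array a loess curve (span 0.3) of its deviation from the mean of all arrays on that mean. The fit was checked on simulated data.

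Members and lists were chosen with earlier results of these data known. There are 47 lists, 34 of programmes and 13 of other cell types, with 818 of 910 symbols measured, and they share members. Named genes are, per direction, called genes ordered by size, filled to 12 by smallest unadjusted p among genes whose arrays do not overlap, whose higher mean is above background and whose level-centred sign is the same; predicted genes, receptor segments and small RNA genes were left out. Added were members of each list (at least 2), genes of the sort and lineage, and 5 microRNA genes. A selection is printed. Il2, Il3, Il21, Paxbp1, the histone genes, and the cell cycle members other than Kif11 and Mki67 were named after their values were seen. Alternatives were another normalisation, a filter on dim genes, array weights, a variance trend, the replicate block, each array left out and, chosen after seeing the data, the array set.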

Additional observations from a re-analysis of the deposited data

Results flagged for a closer look

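Signal outside the genes compared: 6 probe sets that are not listed with a gene set 4 arrays apart. Their median level was 9.28 on acute 1, 8.99 on chronic 1 and 8.69 on chronic 2, as on naive 1, against 6.73 to 6.92 on the other 5 arrays. By the same gap of 1 log2 unit, 1 such probe set was lower on the 4 arrays, and 0 of the genes compared were higher and 0 lower. Between the Th2 arrays, Il2 and the stress list median were lowest on acute 1, chronic 1 and chronic 2, with the values given above. On the naive arrays the stress list medians were 8.27, 8.32 and 8.04, so that naive 1 was not apart there. What the division stands for was not tested.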

How the results depend on the processing

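The number of genes called moved more than the differences. Of 24 alternatives, the fit on the 6 Th2 arrays called 2 genes (2 higher, 0 lower), the variance trend 3 (1 higher), level-centred values 8 (5 higher), cyclic loess 8 (5 higher), quantile normalization 5 (1 lower) and array medians removed 5 (1 higher). Array weights called 6721 (3973 higher, 2748 lower). Leaving out 1 array gave 0 to 12 calls, 0 to 6 higher and 0 to 8 lower. With the array set as a term, chosen after seeing the data, 7 genes were called, 287 on the 6 Th2 arrays (52 higher, 235 lower) and 15 with level-centred values (5 higher, 10 lower), and without naive 1 and chronic 3 it was 1087 (566 higher, 521 lower). The causes were not tested. With the replicate number as a block, 0 genes were called in limma, also with level-centred values (0), and 3554 had an unadjusted p under 0.05 (2145 level-centred). Same-numbered acute and chronic arrays deviated from their group means together at r = 0.572, -0.012 and 0.403. Arrays of unlike number ranged from -0.557 (acute 1 with chronic 3) to 0.441 (acute 2 with chronic 3). Deviations from a mean of 3 arrays depend on each other, so these values cannot decide whether the numbers pair arrays.

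Of 2782 values of 117 named genes under the alternatives, 2507 kept direction and call, 67 lost and 187 gained a call, and 21 reversed, all in 4 genes whose main differences lay between -0.09 and 0.11. Cd44 was 0.136 with level-centred values, both without and with the block, 0.141 with cyclic loess and 0.114 with quantile normalization. With the array set it was 0.033, 0.088 and 0.164 (on 9 arrays, 6 arrays and level-centred). When 1 array was left out, Cd44 was -0.192 to 0.081 (0.014, 0.045 and 0.081 without acute 2, acute 3 and chronic 1). Gata3 was 0.032 with level-centred values, both without and with the block, and 0.058 with cyclic loess. Cd8b1 was -0.032 with array weights, -0.009 with quantile normalization, -0.048 with medians removed, -0.081 and -0.103 with the array set (the latter level-centred, where Cd8a was -0.013), and -0.034 to 0.055 when 1 array was left out (-0.034 without acute 1 and -0.003 without chronic 1). The number of arrays limits the precision, and dim genes near background have sizes of intensity only.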
